A study of Mus musculus with 2 samples.

Results

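The MHC class II presentation genes were examined in RNA from entire omenta of WT mice and of Postn-DTR mice. The group was set by gene symbol and holds 10 genes of the 24346 in each library. They are the classical chains H2-Aa, H2-Ab1 and H2-Eb1, the H2-DM chains H2-DMa, H2-DMb1 and H2-DMb2, the H2-O chains H2-Oa and H2-Ob, the invariant chain gene Cd74 and the transactivator gene Ciita. All 10 were listed in both libraries and passed the expression minimum, an FPKM of 1 or more on average. FPKM counts fragments relative to transcript length and to the depth of the library, so levels can be set side by side between genes.

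RNA was measured in 1 library per genotype, 5 days after injection of diphtheria toxin (DT), which both genotypes received. Postn-DTR mice are heterozygotes on a C57BL/6 background with a DT receptor inserted into a Postn copy, so that DT kills cells in which the Postn promoter is active. In the omentum these include Aldh1a2+ fibroblastic reticular cells, but the promoter is also used outside the omentum, and the labels give neither the age nor the sex of the mice nor whether animals were pooled. With 1 library per genotype there was no spread between replicates, no test between genotypes could be made, and no difference has a replicate check.

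MHC class II molecules display peptides from engulfed material to CD4 T cells. An alpha and a beta chain assemble around the invariant chain CD74, which is cut in the endosome until a short fragment is left in the groove. H2-DM removes that fragment, and H2-O, best known in B cells, holds H2-DM back. Transcription of these genes needs CIITA, a co-activator without a DNA-binding domain of its own that docks onto RFX, CREB and NF-Y proteins bound at class II promoters. B cells, dendritic cells and some macrophages are the main carriers, and the milky spots of the omentum hold all of them.

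The targeted gene checked the labels, with a Postn FPKM of 58.3 in WT against 16.2 in Postn-DTR. Estimated depths were alike, near 23200000 fragments in the WT library and 24000000 in the other. Omental markers were present, with Adipoq of adipocytes at 955.2 and 635.9 and Upk3b of mesothelium at 211.6 and 181.9. The WT library also carried pancreatic transcripts. The 24 acinar markers summed to an FPKM of 12470 in WT against 20.4 in Postn-DTR, with 1 and 6 of them at 0. With 1 library per genotype, effects of this difference in the tissue collected and of genotype cannot be told apart. Values with the acinar list removed and both libraries rescaled to equal totals are given as well, but they do not take out other RNA that came with pancreatic tissue. This rescaling moved the median change of all genes from 0.02 to -0.28. The summed FPKM of all genes was 542190 in WT against 671882 in Postn-DTR. The acinar sum is small beside these totals, so most of the move came from evening out the totals rather than from removing acinar genes.

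The regulatory DNA of these genes is shown first, because the members are known to share a promoter design. Whether that design bears on their changes was not tested. The RefSeq promoter table (GRCm38.p6) held 7 of the 10 members. The 250 bases before each RefSeq start were searched on both strands for ATTGG, the core of the NF-Y site called the Y box, and for ACNGATG, part of the RFX site called the X box. Matches to the 2 patterns cannot share bases. Below, each stretch runs 5′ to 3′ on the gene's strand and ends at ATTGG, and capitals mark matches to either pattern.
H2-Aa: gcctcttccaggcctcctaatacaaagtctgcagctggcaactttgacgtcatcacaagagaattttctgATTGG
H2-Eb1: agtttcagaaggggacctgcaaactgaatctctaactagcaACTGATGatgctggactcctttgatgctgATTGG
H2-DMb2: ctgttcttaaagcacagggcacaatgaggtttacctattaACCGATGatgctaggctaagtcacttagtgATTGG
H2-Ob: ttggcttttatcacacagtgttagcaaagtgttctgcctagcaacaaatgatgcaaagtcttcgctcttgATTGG
H2-Oa: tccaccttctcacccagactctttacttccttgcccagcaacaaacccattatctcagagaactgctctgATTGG

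On GRCm38 these stretches are chr17:34287867-34287941 (minus strand) for H2-Aa, chr17:34305738-34305812 for H2-Eb1, chr17:34145089-34145163 for H2-DMb2, chr17:34238778-34238852 for H2-Ob and chr17:34092266-34092340 for H2-Oa, the last 4 on the plus strand. The ATTGG starts 48 bases before the RefSeq start in H2-Aa, 59 in H2-Eb1, 90 in H2-DMb2, 57 in H2-Ob and 43 in H2-Oa. All 7 members in the table held ATTGG, against 33.8% of 32851 promoters of the same length. In H2-DMa it lay before only 1 of the 2 listed starts, further upstream than in the other 6 members. ACNGATG was found in 5 of the 7, against 8.31% of promoters. In H2-Aa it lay on the opposite strand, and in H2-Oa it was further than 35 bases from ATTGG. In H2-Eb1, H2-DMb1 and H2-DMb2 it started 29 or 30 bases before ATTGG on the gene's strand, while 0.0974% of all promoters had this order within 15 to 35 bases, a range chosen after the members were seen. H2-DMb1 and H2-DMb2 are close copies, so their matches are not independent. All matches found here describe letters in a window and show no binding. The matching stretch of H2-DMb1 is not printed because 63 of its 75 bases lie in annotated exons.

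Every one of the 10 class II genes had a lower FPKM in Postn-DTR than in WT. Changes are differences of log2(FPKM + 1) between Postn-DTR and WT, negative where Postn-DTR was lower, and a gene was counted as lower at a change of at least 2-fold, or -1 on this scale. The count was 5 of 10 members, against 410 of 13127 genes compared (3.12%). Of all genes compared, 48.1% were lower by any amount. The median change of the members was -1.01, and that of all genes compared was 0.02. The members ranged from -1.80 for Ciita to -0.60 for H2-DMb1, and the change below which 5% of all genes lay was -0.79. H2-Eb1 at -1.06 lay just inside the 2-fold limit and H2-Ab1 at -0.97 just outside it, so the count of 5 rests on where the limit is set. At equal totals without acinar genes the median was -1.35 and 9 of the 10 members passed, with H2-DMb1 at -0.93, against 6.02% of all genes.

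**Figure D1:**
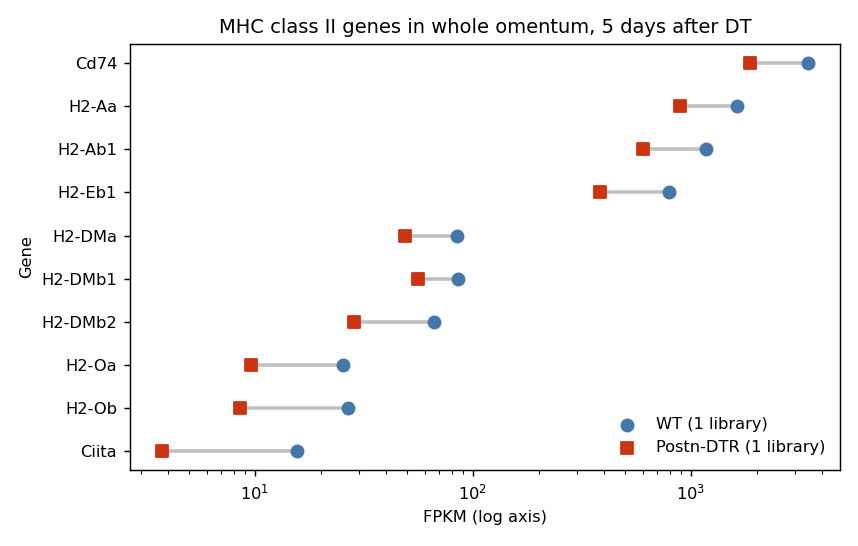
FPKM (log axis) of the 10 class II genes in the WT library (circles) and the Postn-DTR library (squares), with a line joining the values of each gene. Every square lies to the left of its circle, and the widest gap is that of Ciita, at 15.6 and 3.75.

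The classical chains, which form the peptide groove, are encoded side by side on chromosome 17. H2-Aa encodes the alpha chain of I-A (ENSMUSG00000036594, 34282744 to 34287823, minus strand, GRCm38). Its FPKM was 1625 in WT against 890.2 in Postn-DTR, 1.83-fold lower. It ranked 29 among all genes in WT against 123 in Postn-DTR. H2-Ab1, the I-A beta chain (ENSMUSG00000073421, 34257689 to 34269419, plus strand), was at 1177 and 602.4, 1.95-fold lower. The chains of I-A thus kept nearly the same proportion, with 72.4 H2-Ab1 per 100 H2-Aa in WT against 67.7 in Postn-DTR. H2-Eb1, the I-E beta chain (ENSMUSG00000060586, 34305867 to 34316674, plus strand), was at 796.2 and 381.6, 2.09-fold lower. C57BL/6 mice do not express the I-E alpha chain, so H2-Eb1 has no partner in this strain. The alpha chain gene, listed as the pseudogene H2-Ea-ps, was at 0 in WT against 0.0714 in Postn-DTR. The 3 classical chains together summed to 3599 in WT against 1874 in Postn-DTR, 1.92-fold lower.

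Cd74 encodes the invariant chain that guides class II molecules to the endosome (ENSMUSG00000024610, chromosome 18, 60803848 to 60812652, plus strand). It was the most abundant member in both libraries, with an FPKM of 3451 in WT against 1875 in Postn-DTR. It held rank 6 in WT against 44 in Postn-DTR, and it was 1.84-fold lower. Cd74 made up 46.9% of the class II sum in WT against 48.0% in Postn-DTR. Per 100 FPKM of H2-Aa there were 212.3 of Cd74 in WT against 210.7 in Postn-DTR, so the invariant chain and the I-A alpha chain changed almost in step. MIF is a cytokine that binds surface CD74, with CD44 as co-receptor. Mif went from 120.5 to 183.2 and Cd44 from 43.0 to 44.3. Neither reached 2-fold, and the change of Cd44, 0.04, became -0.06 at the same 75th percentile and -0.29 at equal totals.

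H2-DM is the peptide editor of the endosome. H2-DMa, its alpha chain (ENSMUSG00000037649, 34119541 to 34139101, plus strand), was at 84.8 in WT against 48.9 in Postn-DTR, 1.73-fold lower. The mouse has a pair of beta chain genes. H2-DMb1 (ENSMUSG00000079547, 34153072 to 34160230) was at 85.3 and 56.1, 1.52-fold lower and the smallest change of the 10 genes. H2-DMb2 (ENSMUSG00000037548, 34143307 to 34151555) was at 66.3 and 28.5, 2.33-fold lower. H2-DMb2 thus made up 43.8% of the beta chain FPKM in WT against 33.7% in Postn-DTR. These neighbours are close copies. Their transcripts were identical at 94.4% of aligned bases, and 27.2% of the 50-base windows of H2-DMb1 also occur in H2-DMb2, so how reads were split between them is uncertain. Their sum does not depend on that split among the copies. It was 151.6 in WT against 84.5 in Postn-DTR, 1.79-fold lower and close to H2-DMa. H2-DMa overlaps Brd2, which is read from the opposite strand and changed by -0.14, and the strand setting used to count reads is not given in the sources used here.

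H2-O restrains H2-DM, and both of its chains changed more than the H2-DM genes as a whole. H2-Oa (ENSMUSG00000024334, 34092340 to 34095234, plus strand) was at 25.3 in WT against 9.60 in Postn-DTR, 2.63-fold lower. H2-Ob (ENSMUSG00000041538, 34238903 to 34254414, plus strand) was at 26.7 and 8.57, 3.12-fold lower. The ratio of inhibitor RNA to editor RNA therefore differed between the libraries. In whole tissue this does not show a changed balance within any cell. H2-O summed to 22.0 per 100 FPKM of H2-DM in WT and to 13.6 in Postn-DTR. Relative to the classical chains, H2-DM was nearly level, with 6.57 per 100 in WT against 7.12 in Postn-DTR.

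Ciita, the transactivator of the whole group (ENSMUSG00000022504, chromosome 16, 10480059 to 10528418, plus strand), was the least abundant member and changed most. Its FPKM was 15.6 in WT against 3.75 in Postn-DTR, 4.15-fold lower. Only 0.853% of genes compared had a more negative change. Per 100 FPKM of H2-Aa, Ciita was at 0.958 in WT against 0.421 in Postn-DTR, so it was lower in Postn-DTR by more than the chains it activates.

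**Figure D2:**
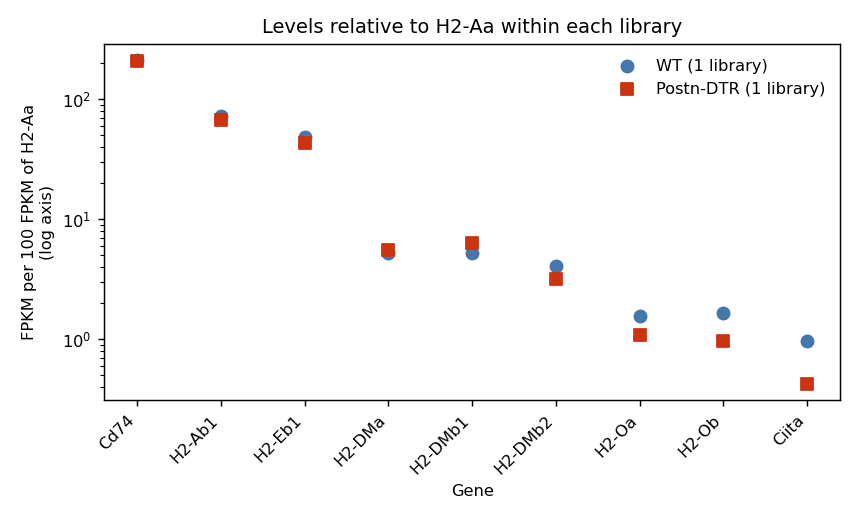
FPKM of 9 class II genes per 100 FPKM of H2-Aa (log axis) in the WT library (circles) and the Postn-DTR library (squares), a quantity that no scaling between libraries can move. Cd74 overlaps at 212.3 and 210.7, whereas H2-Oa, H2-Ob and Ciita sit lower in Postn-DTR, Ciita at 0.958 and 0.421.

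These differences among members were set against counting error. Fragments behind each value were estimated from the steps between low FPKM values and annotated lengths, and they ranged from 520 for H2-Oa to 91525 for Cd74 in WT and from 204 to 51495 for the same genes in Postn-DTR. The exact 95% interval of the Postn-DTR to WT ratio, which covers counting error alone and is approximate, was 0.214 to 0.270 for Ciita. It was 0.283 to 0.363 for H2-Ob and 0.321 to 0.446 for H2-Oa, which overlap each other. H2-DMb2 followed at 0.395 to 0.466, overlapping H2-Oa. H2-Eb1 had an interval of 0.469 to 0.490 and H2-Ab1 of 0.502 to 0.522, and neither overlapped a neighbour in this order. Cd74, at 0.537 to 0.549, overlapped H2-Aa, at 0.538 to 0.557, and both overlapped H2-DMa, at 0.543 to 0.613. H2-DMb1 was last, at 0.617 to 0.700. The span from Ciita to the I-A chains was thus wider than counting error, but the order of genes with overlapping intervals was not resolved. The intervals also leave out the uncertain split of reads between H2-DMb1 and H2-DMb2, and how far mice of 1 genotype differ is unknown.

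**Figure D3:**
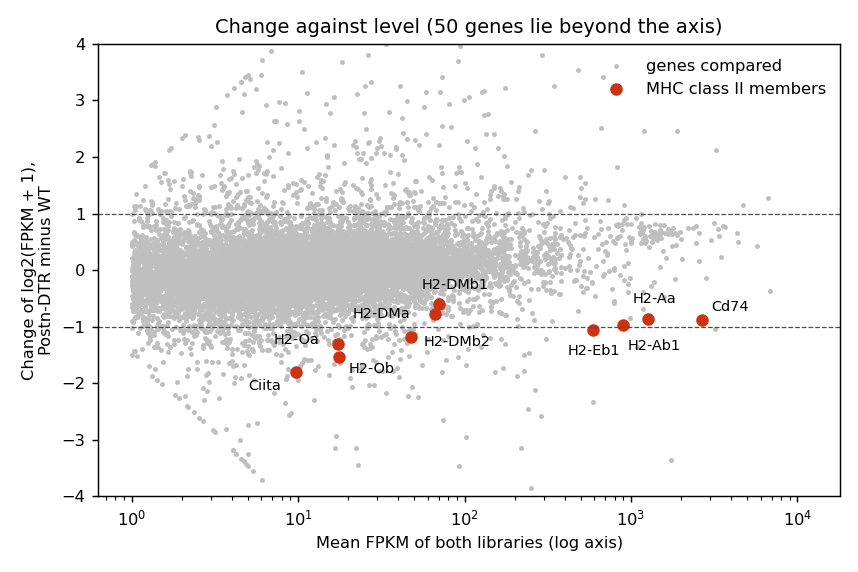
Difference in log2(FPKM + 1) between Postn-DTR and WT against mean FPKM (log axis) for 13127 genes (grey) and the class II members (red), with dashed lines at 2-fold and 50 genes beyond the axis. The members lie between -0.60 and -1.80, and the least abundant member, Ciita, is lowest.

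Because Ciita acts through promoter-bound proteins, their genes were compared. None of the 7 genes for RFX, CREB and NF-Y subunits reached 2-fold in either direction, and their median change was 0.11, which turned to -0.22 at equal totals and to -0.18 over those with an average FPKM of 10 or more. Rfx5, the large RFX subunit, was at 9.73 in WT against 6.43 in Postn-DTR. Rfxank was at 6.05 and 7.53. Of the NF-Y subunits, Nfya was at 17.4 and 12.2, and Nfyc at 22.4 and 24.3. Of the 7 genes, 3 were lower and 4 higher as deposited, and 6 were lower and 1 higher at equal totals. Regulators of Ciita did not move together. Of 13 listed 12 were compared, of which 0 were at least 2-fold lower and 2 at least 2-fold higher, with a median of 0.12 that turned to -0.21 at equal totals. Those higher by 2-fold were Irf4, a transcription factor of B cells and macrophages, from 13.3 to 41.0, and Il10, a cytokine that lowers class II display, from 1.20 to 7.63. Spi1, which encodes the myeloid and B cell factor PU.1, went from 60.5 to 121.9, a change just under 1. Irf1, an interferon-induced transcription factor, was at 63.5 and 55.4. Ifng itself was under the expression minimum, at 0.598 and 0.330. Prdm1, whose product silences Ciita in plasma cells, was at 4.02 and 4.85, and its change of 0.22 became -0.06 at equal totals.

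Genes of the machinery that feeds class II with peptides were mostly higher, 8 of 9 as deposited and 7 of 9 at equal totals. Of the 9 genes for endosomal processing, 0 were at least 2-fold lower and 3 at least 2-fold higher, against 3.88% of all genes compared that were higher to that extent, and their median change was 0.75. Lgmn, the endopeptidase that cuts after asparagine, rose from 169.0 to 446.4. Ctss, the protease that trims the invariant chain in B cells and dendritic cells, rose from 312.7 to 715.7, and Ctsl from 284.9 to 611.5. Ctsd, an aspartic protease, went from 858.5 to 1448. Ifi30, a thiol reductase that opens disulfide bonds of antigens, was at 239.7 and 267.7, and its change of 0.16 became -0.18 at equal totals. Sppl2a, which clears the last stub of CD74 from the membrane, was at 21.7 and 19.7. At equal totals 1 of the 9 genes, Lgmn, stayed at least 2-fold higher and the median was 0.41. The class II sum was 2.77 times that of the processing genes in WT against 0.821 times in Postn-DTR. Whether the RNA of the processing genes came from cells that carry class II was not tested.

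Surface turnover and co-stimulation were also read. March1, a ubiquitin ligase that removes class II from the surface, was at 8.84 and 12.1, and Cd83, which opposes it, at 20.6 and 12.1. At the deposited scale none of the 3 turnover genes and none of the 5 co-stimulatory ligands compared reached 2-fold. Their median changes were 0.23, which turned to -0.10 at equal totals, and -0.28. Cd86 was at 11.0 in WT against 8.86 in Postn-DTR, and Cd40 at 12.6 and 9.04.

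Class I presentation, which displays peptides from inside the cell, served as the closest comparison, and 0 of its 9 genes reached 2-fold. Their median change was -0.17, with 6 lower and 3 higher. At equal totals the median was -0.48, with 8 lower and 1 higher, and 0 reached 2-fold. B2m, the shared light chain of class I, was at 3177 in WT against 3725 in Postn-DTR, and H2-K1 at 1383 and 1738, with changes of 0.23 and 0.33 that became -0.11 and -0.01 at equal totals. Nlrc5, the class I counterpart of Ciita, was at 9.78 and 8.60. Within a library these ratios are free of scaling. The classical class II chains summed to 1.24 times H2-K1 and H2-D1 in WT and to 0.498 times in Postn-DTR, and Cd74 was at 1.09 times B2m in WT against 0.504 times in Postn-DTR.

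The class II region itself holds class I genes between H2-DMb1 and H2-Ob, so neighbours could be compared. Psmb9 and Psmb8, immunoproteasome subunits, were at 88.9 and 56.5 and at 138.1 and 120.0. Tap1 and Tap2, which form the peptide pump, were at 53.9 and 44.1 and at 76.7 and 62.7. These immunoproteasome and pump genes are also in the class I list above. Of 8 listed neighbours 7 were compared. All 7 were lower, as the members were, and 1 was at least 2-fold lower, H2-Eb2, a second E beta gene, at 4.39 and 1.66. The median of the 7 was -0.28, against -1.01 for the class II members, 8 of which lie in the same region.

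**Figure D4:**
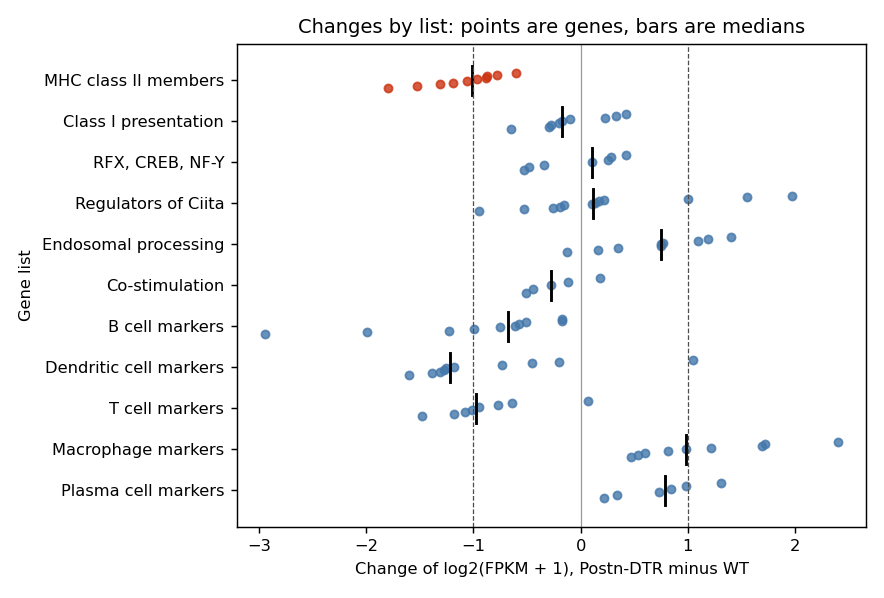
Difference in log2(FPKM + 1) between Postn-DTR and WT for the genes compared in 11 lists; points are genes, black bars medians and dashed lines 2-fold. The class II members (median -1.01) lie to the left with the B cell, dendritic cell and T cell markers, while processing genes (0.75), macrophage markers (0.98) and plasma cell markers (0.79) lie to the right.

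Markers of B cells and dendritic cells were lower with the members while macrophage markers were higher, and the part of these cells in the result was not tested. In whole tissue, fewer cells of a type and less RNA per cell cannot be told apart. All 10 B cell markers were lower, 3 of them by at least 2-fold, with a median change of -0.68. At equal totals 5 passed and none was higher. Their changes ran from -0.17 for Fcrla and Cd79a, a chain of the B cell receptor complex, to -2.94 for Fcer2a, which encodes CD23. Cd79a was at 190.9 and 169.6, Ms4a1, which encodes CD20, at 56.8 and 23.6, and Fcer2a at 30.5 and 3.10. Their summed FPKM was 563.8 in WT against 382.4 in Postn-DTR, and none was at 0. The class II sum was 13.0 times that of the B cell markers in WT against 10.2 times in Postn-DTR. Against Cd79a and Cd79b alone it was 22.4 and 14.7 times. Cr2, a complement receptor of B cells, was at 5.25 and 0.573. Against Fcer2a and Cr2 alone the class II sum was 205.5 and 1064 times as large. Its direction relative to B cell markers thus depended on the markers used.

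Of 10 dendritic cell markers 9 were lower, 6 of them by at least 2-fold, with a median change of -1.22. Flt3, the receptor for a dendritic cell growth factor, was at 6.56 in WT against 1.49 in Postn-DTR. Clec9a and Xcr1, of cross-presenting dendritic cells, were at 5.85 and 1.62 and at 2.77 and 0.517, and Cd209a was at 15.8 and 6.05. Zbtb46, a factor of conventional dendritic cells, was at 5.78 and 4.90. The exception was Clec10a, a lectin that macrophages also express, which went from 71.1 to 148.2, a change of 1.05 that became 0.71 at equal totals. It made the list's sum higher in Postn-DTR, at 142.5 and 180.0, although its median was lower. None of the 10 was at 0. With a pseudocount of 5 the median was -0.60, and over the markers with an average FPKM of 10 or more it was -0.45.

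Macrophage markers went the other way. All 9 were higher, 4 of them by at least 2-fold, with a median change of 0.98 and sums of 2901 and 4707. At equal totals all 9 were still higher, 3 of them by at least 2-fold, and the median was 0.65. Adgre1, which encodes F4/80, was at 41.1 in WT against 137.6 in Postn-DTR, and Csf1r, the receptor for macrophage growth factor, at 158.3 and 219.1. The class II sum was 2.54 times that of the macrophage markers in WT against 0.830 times in Postn-DTR. All 6 plasma cell markers were higher, with a median of 0.79, and 1 reached 2-fold, Mzb1, from 97.8 to 243.7. Plasma cells are known to have shut off Ciita. At equal totals 5 of the 6 were higher, 0 reached 2-fold and the median was 0.47.

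On the side that reads class II, 8 of 9 T cell markers were compared, 4 were at least 2-fold lower and none was at least 2-fold higher, with a median of -0.98. At equal totals 6 were at least 2-fold lower. Cd4, the class II co-receptor, fell from 11.3 to 3.41. Lag3, an inhibitory receptor that also binds class II, was at 6.91 and 7.30, and its change of 0.07 became -0.02 at the same 75th percentile and -0.23 at equal totals. The sum of the T cell markers was 95.4 in WT against 46.6 in Postn-DTR, so the class II sum was 77.1 and 83.8 times as large.

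Genes with the most similar pair of values to H2-Aa were sought among all other genes compared, by distance on the log2(FPKM + 1) scale over the 2 libraries. The nearest 5 were Sparc, Dbi, Myl6, Col3a1 and Actb, at distances of 0.16 to 0.53. Sparc was at 1455 and 897.9 and Col3a1 at 1264 and 698.8. With only 2 libraries this likeness reflects level as much as change.

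**Figure D5:**
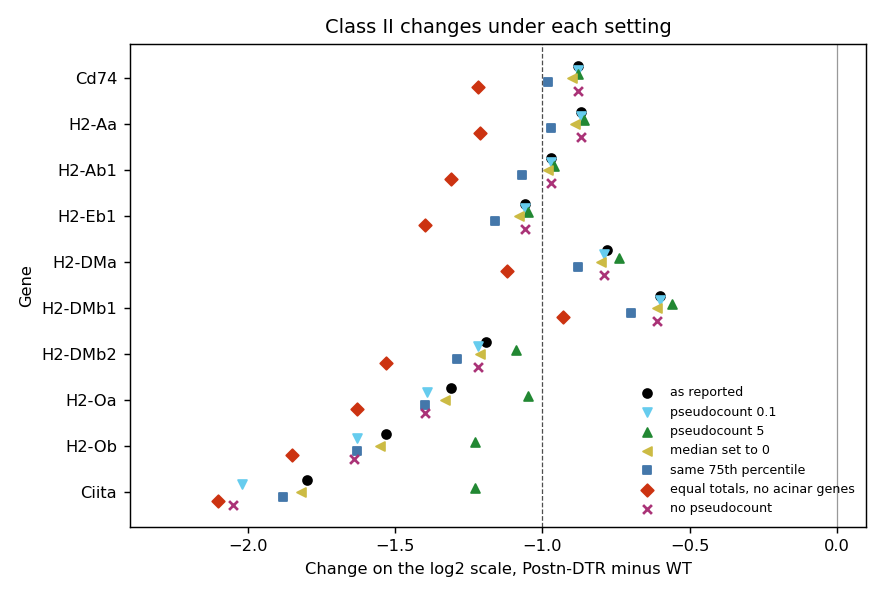
Change on the log2 scale, Postn-DTR minus WT, of each class II gene under 7 settings for the pseudocount and the scaling, with a dashed line at 2-fold and a solid line at no change. Every point lies left of no change. Equal totals without acinar genes (diamonds) moved the genes left, and a pseudocount of 5 (upward triangles) pulled the least abundant ones right, Ciita to -1.23.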

How the data were processed

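Whole omenta were profiled by RNA-seq with 1 library per genotype. A miRNeasy kit gave total RNA, and library preparation used TruSeq mRNA reagents that keep strand, per the labels. The authors deposited FPKM, 1 value per gene symbol and library. The submitters' processing notes name TopHat2 2.1.1, Bowtie2 2.2.8, SAMtools 0.1.18, Cuffdiff 2.2.1 and the build mm10. Their settings and the annotation are not given in the sources used here.

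Changes are differences of log2(FPKM + 1) between the libraries, a scale that shrinks changes at low levels. Folds of single genes are ratios of deposited FPKM. Comparison took in genes averaging an FPKM of 1 or more. No test was possible. Members, lists and limits were chosen with earlier results of these data known. All members are named. Of 21 other lists, examples were named from genes changed at least 2-fold, the 2 most abundant and those whose role is described.

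Coordinates came from GENCODE M21 (GRCm38, the assembly of mm10), promoters from RefSeq. Depth was estimated by fitting a denominator and a length offset of 200 bp so that low values of genes with 1 annotated transcript became whole reads. Within 0.1 reads, 77.4% of 541 values in WT and 78.0% of 491 in Postn-DTR came out whole, where even spread would give 20%. Read numbers and intervals are approximate. The calculations were tested on simulated data. Python 3.11.15, pandas 2.3.3, scipy 1.17.1 and matplotlib 3.10.9 were used.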

Additional observations from a re-analysis of the deposited data

How the results depend on the processing

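All 79 changes of members under 8 alternatives to the pseudocount, filter and scaling kept their sign. A pseudocount or a filter cannot reverse the sign of a gene, so only the 3 scaling alternatives could have done so. Over these alternatives, the change of Ciita ran from -2.10 to -1.23 and that of H2-DMb1 from -0.93 to -0.56. The median change of the members was -0.97 at a minimum average FPKM of 10, which left out Ciita, -1.03 with the median of all genes set to 0, -1.12 at the same 75th percentile and -1.35 at equal totals without acinar genes. The number of members at least 2-fold lower was 9 at equal totals, 10 with a 1.5-fold limit and 1 with a 3-fold limit. The 410 lower and 509 higher genes became 643 and 642 when the pseudocount was 0.1, 168 and 287 when it was 5, 173 and 303 when the minimum average FPKM was 10, 789 and 307 at equal totals, 1160 and 1294 at 1.5-fold, and 153 and 199 at 3-fold. Higher genes were 55.4% of those called, 47.0% at the same 75th percentile, 63.1% when the pseudocount was 5, 63.7% when the minimum average FPKM was 10, and 28.0% at equal totals. Stricter limits and filters lower a count by construction. The class II sum relative to B cell markers was 0.783 times as high in Postn-DTR as in WT, and 0.655 times with Cd79a and Cd79b only. With Fcer2a and Cr2 only it was 5.18 times as high, so the direction depended on the markers used. The calculation without a pseudocount was chosen after seeing the data and left the members' count at 5. No paired analysis was possible because each genotype has 1 library. Counting error was small for all members, and the difference between mice of 1 genotype could not be measured.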

Other observations

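All 5 markers of large peritoneal macrophages, resident cells known for low class II, were higher in Postn-DTR, 2 of them by at least 2-fold, with a median change of 0.80 that became 0.47 at equal totals. Gata6, their identity factor, was at 18.6 in WT against 33.1 in Postn-DTR, and Selp, which platelets and endothelium also express, at 8.55 and 44.3. Monocyte markers moved apart, with 2 of 4 at least 2-fold lower and 1 at least 2-fold higher. Ccr2, a receptor of monocytes that can mature into class II-bearing cells, fell from 39.6 to 16.4 and Cx3cr1 from 16.7 to 4.92, while Ly6c2 rose from 50.9 to 150.3.

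Markers of non-haematopoietic cells and general genes were read as well. The 4 mesothelial markers had a median of 0.06, which turned to -0.04 at the same 75th percentile and -0.28 at equal totals, and 1 was at least 2-fold lower, Lrrn4. The 4 endothelial markers had a median of -0.17 and the 4 adipocyte markers of -0.37, with none at 2-fold in either list at the deposited scale. The 8 housekeeping genes had a median of 0.12, which turned to -0.22 at equal totals. All 23 acinar markers compared were at least 2-fold lower, with a median of -8.13.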
